A study of Homo sapiens with 16 samples.

Results

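Interferon-stimulated genes are the genes a cell turns on when interferon binds its surface receptor. A list of 47 such genes was followed here in 8 tumour cell lines before and after an epigenetic drug treatment. The genes were chosen by name, with earlier results of these data known. Of the 47, 46 had a probe set under their symbol and were measured among 11963 genes in all. The remaining listed gene, STAT2, was not analysed here. Where a gene had several probe sets, the one highest on average over 16 arrays stands for it. Levels are deposited log2 values, so a difference of 1 stands for a fold change of 2.

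Anaplastic large cell lymphoma (ALCL) was represented by 4 lines, JB6, SU-DHL-1, Karpas 299 and FE-PD, and T-cell leukaemia or lymphoma by Jurkat, CCRF-CEM, Molt-3 and Molt-4 (the T-cell lines). Each line was hybridised once untreated and once after 1 µM 5-aza-2'-deoxycytidine for 6 days, renewed on days 2 and 5, with 625 nM trichostatin A over the last 24 hours. The first drug blocks DNA methyltransferases and the second blocks histone deacetylases; both were always given together, so their effects cannot be told apart. Per the series title, the study asked whether this treatment gives T-cell lines an ALCL-like expression pattern. All lines grew in RPMI 1640 medium with serum, and no interferon was named among the agents. The label of the untreated samples names no solvent control. All are tumour cell lines kept in culture, JB6, SU-DHL-1 and Karpas 299 are known to carry an ALK fusion that FE-PD lacks, and Molt-3 and Molt-4 are sister lines from the same leukaemia. Each group therefore held n = 4 lines with 1 array each, and a test measures the spread between lines, with no repeat cultures of a line. The tests count Molt-3 and Molt-4 as separate lines, so the 4 T-cell lines are not fully independent, and their p values do not allow for this. In this text, values per line are listed in the orders just given.

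Cells make type I interferon after sensors such as MDA5 (the product of IFIH1) or IFI16 detect foreign nucleic acid. Secreted interferon binds the IFNAR receptor, whose kinases JAK1 and TYK2 start a phosphorylation cascade. It leads to ISGF3, a complex with IRF9 as a subunit that binds the interferon-stimulated response element (ISRE), while type II interferon acts on the GAS element. The genes switched on block virus entry, degrade or edit viral RNA, tag proteins with ISG15 or feed back on the pathway. In lymphoid cells many of these genes also have a basal level without added interferon. In other tumour cells DNA methyltransferase inhibitors are known to raise members of this family.

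Promoter sequence was read for the members because the ISRE and GAS elements are the sites through which interferon acts on this family, and because the drugs act on DNA methylation and on histones. RefSeq windows (GRCh38.p14) of 300 bases, from 250 before to 50 after a transcript start, were found for 34 of the 46 members. No window was read for IRF2, IRF7, IFIT2, IFITM2, MX2, OAS2, OASL, USP18, GBP2, TRIM22, PML or LY6E. The ISRE was searched as TTTCNNTTTC and, on the other strand, as GAAANNGAAA. GAS was searched as TTCNNNGAA, which reads the same on both strands, and the searches can overlap. ISRE letters were present in at least 1 window of 23 of the 34 members (67.6%), against 4.13% of the 9563 tested genes with a window and 3.57% of all 35120 windows. GAS letters were present in 11 of the 34 (32.4%), against 9.18% of tested genes and 7.66% of all windows. The median number of CpG dinucleotides, the bases that DNA methyltransferases act on, was 9 in member windows and 26 in those of tested genes, taking the highest of a gene's windows. A match is only a match of letters, and methylation and factor binding were not measured.

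The 6 windows that follow belong to members on which the results turn, 5 with a match and 1, IFI16, with none in the window shown. They lie at chr1:1013247-1013546 on the plus strand for ISG15, chr14:94110486-94110785 on the plus strand for IFI27, chr9:98119173-98119472 on the minus strand for TRIM14 and chr11:313790-314089 on the plus strand for IFITM1. IRF1 has its window at chr5:132490724-132491023 on the minus strand and IFI16 at chr1:159008741-159009040 on the plus strand. Capitals mark every ISRE or GAS match, each sequence runs 5′ to 3′ along the gene, and positions count from the transcript start.
ISG15: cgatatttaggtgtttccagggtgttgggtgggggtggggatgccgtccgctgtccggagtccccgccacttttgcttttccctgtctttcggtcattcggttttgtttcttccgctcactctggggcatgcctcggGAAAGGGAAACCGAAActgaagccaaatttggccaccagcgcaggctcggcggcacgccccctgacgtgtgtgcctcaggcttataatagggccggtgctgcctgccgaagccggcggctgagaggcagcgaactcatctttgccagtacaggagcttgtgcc
IFI27: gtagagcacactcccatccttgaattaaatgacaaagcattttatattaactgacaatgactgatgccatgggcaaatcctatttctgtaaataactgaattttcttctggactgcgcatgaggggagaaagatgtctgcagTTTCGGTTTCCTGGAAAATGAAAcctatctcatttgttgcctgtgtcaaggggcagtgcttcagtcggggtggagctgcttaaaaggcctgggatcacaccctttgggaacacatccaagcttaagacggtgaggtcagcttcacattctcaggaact
TRIM14: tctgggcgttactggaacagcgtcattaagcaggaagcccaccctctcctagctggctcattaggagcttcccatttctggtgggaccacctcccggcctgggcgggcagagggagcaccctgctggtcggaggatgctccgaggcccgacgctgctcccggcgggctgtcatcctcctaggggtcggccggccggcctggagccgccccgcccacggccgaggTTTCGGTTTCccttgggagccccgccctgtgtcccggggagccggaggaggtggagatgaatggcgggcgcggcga
IFITM1: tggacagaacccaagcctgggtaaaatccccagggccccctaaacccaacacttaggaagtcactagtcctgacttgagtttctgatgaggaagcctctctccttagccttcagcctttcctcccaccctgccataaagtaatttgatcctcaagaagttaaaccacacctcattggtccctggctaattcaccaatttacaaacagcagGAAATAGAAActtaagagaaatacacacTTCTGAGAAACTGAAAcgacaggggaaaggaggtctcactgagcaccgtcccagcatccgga
IRF1: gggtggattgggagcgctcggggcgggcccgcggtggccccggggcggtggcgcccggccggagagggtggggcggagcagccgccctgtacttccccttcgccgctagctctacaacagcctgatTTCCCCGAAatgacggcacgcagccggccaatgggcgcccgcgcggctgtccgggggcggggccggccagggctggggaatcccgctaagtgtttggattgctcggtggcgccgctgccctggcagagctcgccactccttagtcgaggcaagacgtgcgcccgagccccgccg
IFI16: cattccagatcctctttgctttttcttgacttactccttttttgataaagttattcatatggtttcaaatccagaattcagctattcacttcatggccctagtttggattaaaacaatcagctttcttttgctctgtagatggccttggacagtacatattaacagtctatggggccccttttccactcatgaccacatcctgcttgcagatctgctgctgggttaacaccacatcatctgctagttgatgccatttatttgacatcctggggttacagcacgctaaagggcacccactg
ISG15 holds a pair of overlapping ISRE matches that begin at -113 and -107. In IFI27 the ISRE matches begin at -108 and -95, with a GAS match between them at -101. TRIM14 has 1 ISRE match at -26, next to its start. IFITM1 has ISRE matches at -40 and -6 and a GAS match at -12. IRF1 has the GAS match TTCCCCGAA at -124 and no ISRE match.

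The arrays differed between conditions in ways that touch every gene. A control probe set for 28S ribosomal RNA rose by more than 2 log2 units on treatment in 5 lines (JB6, SU-DHL-1, FE-PD and both Molt lines), from 6.6 to 7.42 untreated to 12.05 to 14.26 treated. In the other 3, Karpas 299, CCRF-CEM and Jurkat, it ran from 7.49 to 7.62 untreated and 6.81 to 8.15 treated. The SD of all values on an array was 1.83 to 1.94 untreated and 1.6 to 1.81 treated. The mean of 18 hybridisation spike probe sets was 7.76 to 9.27 untreated and 8.92 to 10.29 treated. Members are therefore read against all genes in the same comparison. By list means the lines carried the markers of their labels: the mean of 9 T-cell markers was 9.9 to 10.64 in untreated T-cell lines and 7.08 to 7.75 in untreated ALCL lines, and that of 7 ALCL markers was 6.61 to 6.9 and 10.52 to 11.46. Gene by gene, 6 of the 9 were lower and 5 of the 7 higher in untreated ALCL lines at an adjusted p below 0.05 (limma). CD2, CD5, ZAP70, ALK and TIA1 did not reach it, and TIA1 pointed the other way (-0.47). In bulk RNA, fewer expressing cells and less RNA per cell cannot be told apart.

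In the T-cell lines treatment lowered more of this family than it raised. Of the 46 members 23 (50%) were lower, against 20.2% of all 11963 genes, and 4 (8.7%) were higher, against 21.7%. A member is called higher or lower at an adjusted p below 0.05 in limma. The median member difference was -0.55 (log2), while the median over all genes was 0.14. The largest falls were in the DNA sensor IFI16, the STAT partner NMI, the mitochondrial adaptor TRIM14, the entry inhibitor IFITM1 and TRIM22, a restriction factor of the TRIM family. The 4 that rose were IRF7, GBP2, OASL and OAS1.

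**Figure D1:**
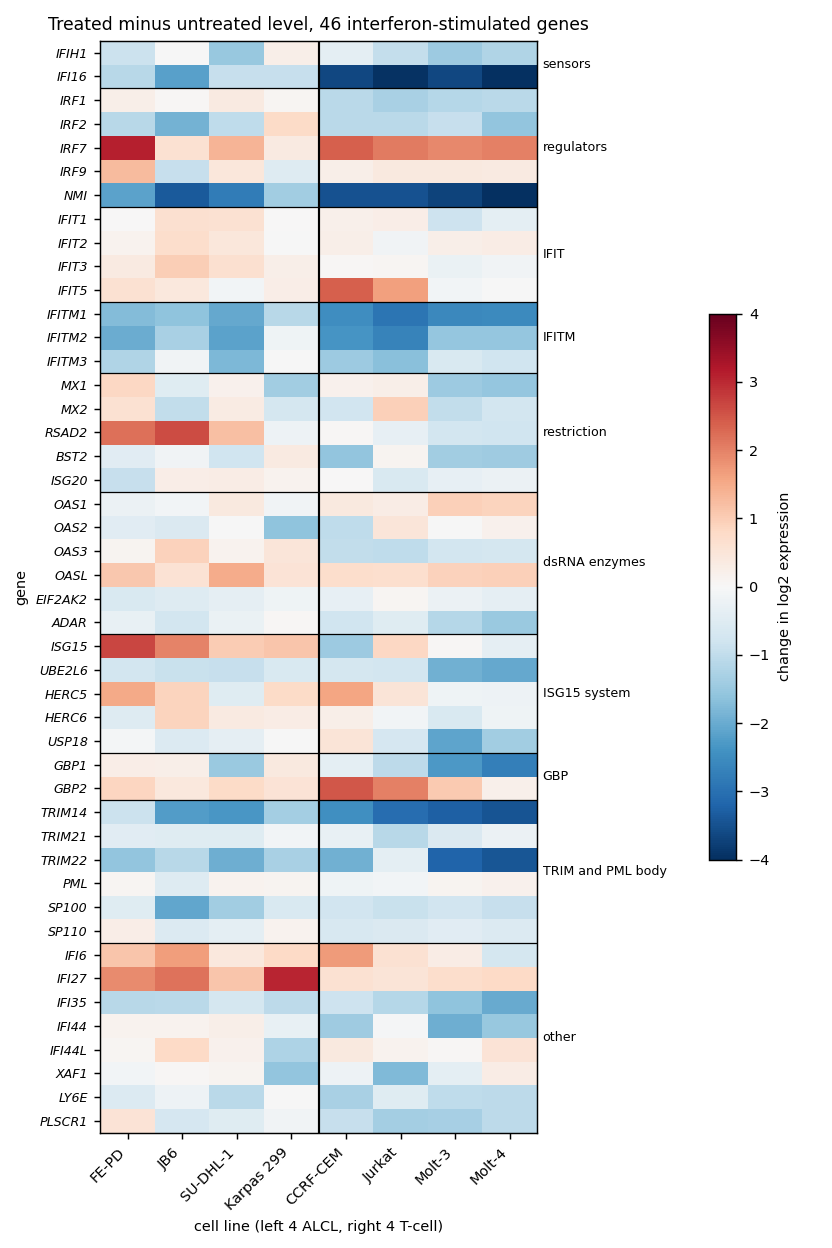
Treated minus untreated log2 level of each of the 46 genes (rows, grouped by role) in each of the 8 lines (columns, ALCL left, T-cell right), with blue for lower and red for higher. The darkest blue runs along NMI, TRIM14 and, in the T-cell lines, IFI16, while IRF7 and IFI27 are red in all 8 lines and ISG15 in all 4 ALCL lines.

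Both nucleic-acid sensors fell in the T-cell lines. IFI16 read 10.73, 11.08, 10.62 and 10.68 untreated and 6.78, 7.44, 6.97 and 6.42 treated. Every treated line lay below every untreated one by more than 3 log2 units. The fitted difference was -3.87 ± 0.21 (SE), a 14.7-fold fall (adjusted p = 1.35e-05). IFIH1, the RNA sensor MDA5, lay at 5.09 ± 0.47 (SD, n = 4) untreated and 4.1 ± 0.07 treated, a difference of -1.0 ± 0.27, adjusted p = 0.0167, near the lower end of the values on these arrays. The other IFIH1 probe set differed by -0.03 and was not called.

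The transcriptional regulators went different ways in the T-cell lines. NMI, which binds STAT proteins and aids their activity, read 9.45, 10.02, 10.2 and 10.19 untreated and 5.95, 6.53, 6.49 and 5.76 treated. Its difference of -3.78 ± 0.28 was a 13.8-fold fall (adjusted p = 4e-05), and untreated and treated values lay far apart. IRF1, an activator of interferon and class I genes, read 8.92, 8.24, 9.29 and 9.23 untreated and 7.64, 7.17, 8.17 and 8.15 treated. All 4 lines fell by a like amount, from -1.07 to -1.28, and the difference was -1.14 ± 0.11, adjusted p = 0.000142. IRF2, an antagonist of IRF1, also fell (-1.17 ± 0.33, adjusted p = 0.0198). IRF7, the factor that drives the interferon alpha genes, went the other way, from 7.4, 6.54, 6.12 and 6.13 to 9.47, 8.92, 8.03 and 8.16. Every T-cell line gained between 1.91 and 2.4 log2 units of IRF7, a 4.28-fold rise (2.1 ± 0.36, adjusted p = 0.00193). IRF9, the DNA-binding subunit of ISGF3, differed by 0.34 ± 0.29 and was not called (adjusted p = 0.345).

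All 3 IFITM genes, whose membrane proteins hold back virus entry, fell in the T-cell lines. IFITM1 read 9.35, 11.59, 10.16 and 10.08 untreated and 6.44, 9.12, 7.59 and 7.54 treated, and every line was lower. The lines kept wide gaps among themselves in both conditions, with CCRF-CEM highest and Jurkat lowest. Differences were -2.62 ± 0.16, adjusted p = 2.34e-05 for IFITM1, -2.03 ± 0.31, adjusted p = 0.00104 for IFITM2 and -1.13 ± 0.29, adjusted p = 0.0134 for IFITM3. IFITM2 and IFITM3 are read by probe sets whose probes can bind related transcripts, so these paralogs may not be fully apart.

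None of the 4 IFIT genes, whose proteins bind foreign RNA ends and stall translation, was called in the T-cell lines. IFIT1 differed by -0.18 ± 0.2 (adjusted p = 0.464), and IFIT2 and IFIT3 by 0.15 ± 0.15 and -0.07 ± 0.14. IFIT5 gave 1.64 in Jurkat, 2.4 in CCRF-CEM, -0.1 in Molt-3 and close to 0 in Molt-4, a mean of 0.98 ± 0.36 with an adjusted p of 0.0512, and its other probe set was called higher (0.97). The 2 lines without a 28S rise were thus high for IFIT5, and the Molt lines near 0. Among the restriction factors BST2, the tetherin that holds virions at the surface, fell (-1.07 ± 0.27, adjusted p = 0.0126). MX1, a dynamin-like GTPase, differed by -0.65 ± 0.39 (adjusted p = 0.189), with 0.25 in Jurkat, 0.16 in CCRF-CEM, -1.46 in Molt-3 and -1.53 in Molt-4. MX2, RSAD2 and ISG20 were not called.

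The enzymes of double-stranded RNA defence were split in the T-cell lines. OAS3, a long-RNA oligoadenylate synthetase, read 8.18, 8.3, 8.25 and 8.22 untreated, within a narrow band, and 7.15, 7.31, 7.52 and 7.53 treated. It fell in all 4 lines (-0.86 ± 0.15, adjusted p = 0.00239). ADAR, which edits adenosine to inosine in double-stranded RNA, read 10.32, 9.84, 10.11 and 10.15 untreated and 9.84, 9.05, 8.98 and 8.67 treated, and it fell too (-0.97 ± 0.18, adjusted p = 0.00274). OAS1, a short oligoadenylate synthetase, rose from 6.21, 6.31, 6.27 and 6.46 to 6.53, 6.69, 7.21 and 7.35 (0.63 ± 0.16, adjusted p = 0.011). Its other probe set differed by -0.23 and was not called, so the rise of OAS1 rests on 1 probe set, and with array centring on the spikes the value was -0.05. OASL, which lacks the synthetase activity, rose in all 4 lines (0.81 ± 0.16, adjusted p = 0.00442). OAS2 and the kinase PKR gene EIF2AK2 were not called, but the other EIF2AK2 probe set fell by 1.94 and was called.

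Of the ISG15 conjugation genes UBE2L6, the conjugating enzyme, fell (-1.35 ± 0.23, adjusted p = 0.00178), as did USP18, the protease that removes ISG15 (-0.92 ± 0.33, adjusted p = 0.0469). ISG15 itself read 9.73, 10.29, 8.45 and 8.45 untreated and 10.55, 8.82, 8.52 and 8.09 treated. CCRF-CEM fell, Jurkat rose and the Molt lines moved less, so the mean difference of -0.24 ± 0.35 was not called (adjusted p = 0.591). HERC5 and HERC6 were not called either. The neighbouring guanylate-binding protein genes parted: GBP1 fell (-1.62 ± 0.4, adjusted p = 0.011) and GBP2 rose (1.43 ± 0.3, adjusted p = 0.00556). GBP2 started within a narrow band, 5.8, 5.86, 5.89 and 5.8, and reached 7.81, 8.36, 6.93 and 6.0, so CCRF-CEM and Jurkat gained most and Molt-4 hardly any.

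Of 6 genes of the TRIM and nuclear-body group, 5 fell. TRIM14, which relays RNA sensing at mitochondria, read 8.97, 8.64, 8.94 and 9.02 untreated and 5.91, 6.19, 5.66 and 5.57 treated, an 8.35-fold fall (-3.06 ± 0.25, adjusted p = 6.56e-05). TRIM22 fell by 2.23 ± 0.41 (adjusted p = 0.00275), with -0.38 in Jurkat, -1.92 in CCRF-CEM, -3.19 in Molt-3 and -3.42 in Molt-4, so Jurkat, where it was lowest untreated, moved least. TRIM21, SP100 and SP110 fell by less than 1 log2 unit, and PML was not called. Of the 3 other TRIM14 probe sets, those at -0.43 and -0.57 were called lower by less, and that at 0.77 was called higher.

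In the remaining group IFI35, a partner of NMI, fell (-1.4 ± 0.18, adjusted p = 0.000518), and so did IFI44 (-1.24 ± 0.26, adjusted p = 0.00517), the lipid scramblase PLSCR1 (-1.17 ± 0.19, adjusted p = 0.00143) and LY6E. IFI27, a small mitochondrial protein, was higher in all 4 lines by 0.53 in Jurkat, 0.6 in CCRF-CEM, 0.71 in Molt-3 and 0.79 in Molt-4, yet it missed the threshold (0.66 ± 0.24, adjusted p = 0.0505). IFI6, IFI44L and XAF1 were not called, nor was the other IFI44 probe set (0.05).

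The size of the T-cell result depends on the reference and on the lines. With each array centred on the spikes the all-gene median became -0.54, 27 members were lower (24.6% of all genes were) and 1 higher (0.527%), and 2.1% of all called genes were higher instead of 51.8%. In CCRF-CEM and Jurkat alone, which leaves out the sister lines and the arrays with a 28S rise, 12 members were lower and 3 higher, where 8.32% of all genes were lower and 4.19% higher. Without Molt-3 alone 15 members were lower, and 13.2% of all genes were. The calls of 17 of the 27 members held whichever line was left out, IFI16, NMI, TRIM14, TRIM22, IFITM1, IRF1, IRF7, OAS3, OASL, ADAR, GBP2 and IFI35 among them. The calls of IFIH1 (-1.2 to -0.85 over these fits), BST2 (-1.47 to -0.91), GBP1 (-2.03 to -1.25), OAS1 (0.53 to 0.74) and IRF2 (-1.25 to -1.04) were each lost without Molt-3 and without Molt-4. That of IFITM3 was lost without Jurkat (-0.95), those of SP100 (-0.86 to -0.81) and SP110 (-0.58 to -0.52) without Molt-3 and without Molt-4, SP100 also without Jurkat, and that of TRIM21 (-0.66 to -0.37) without Jurkat and without Molt-3. The call of USP18 was lost in 7 of 8 such fits (-1.39 to -0.52). Of the 46 members 15 (32.6%) lay in the top 25% of mean levels over all genes and 15 in the lowest 2 of the 4 classes of this size. In that top class the all-gene median change was -0.33 and 39.4% of genes were lower, while the 15 members had a median of -1.07 and 11 were lower. Of the 9 T-cell markers 7 fell. The part of level, of 28S and of marker loss in the result was not tested.

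In the ALCL lines the family moved in both directions. Treatment raised 7 of 46 members (15.2%), where 8.04% of all genes were higher, and lowered 10 (21.7%), where 13.4% were lower. The median member difference was -0.17, against 0.09 over all genes. The 7 that rose were IFI27, ISG15, RSAD2, IRF7, IFI6, OASL and IFIT3, and the largest falls were again in NMI, TRIM14 and IFITM1.

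IFI27, the small mitochondrial protein, read 6.63, 5.45, 6.05 and 5.58 untreated and 8.81, 6.57, 9.09 and 7.46 treated. All 4 lines rose, Karpas 299 by most and SU-DHL-1 by least, and the difference was a 4.16-fold rise (2.06 ± 0.24, adjusted p = 0.000544). ISG15, the ubiquitin-like modifier, went from 9.56, 8.38, 9.55 and 9.21 to 11.53, 9.41, 10.64 and 11.89. The rise came to 1.97 in JB6, 1.03 in SU-DHL-1, 1.09 in Karpas 299 and 2.68 in FE-PD, with some overlap between conditions (1.7 ± 0.35, adjusted p = 0.0082). RSAD2, the antiviral enzyme viperin, read 5.13, 5.02, 5.59 and 5.69 untreated and 7.74, 6.23, 5.37 and 7.9 treated. FE-PD, JB6 and SU-DHL-1 rose while Karpas 299 stayed low, at -0.22, and the mean difference was 1.46 ± 0.37, adjusted p = 0.0213. IFI6, another mitochondrial protein, rose by 1.67 in JB6, 0.42 in SU-DHL-1, 0.8 in Karpas 299 and 1.12 in FE-PD (1.01 ± 0.32, adjusted p = 0.0495).

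**Figure D2:**
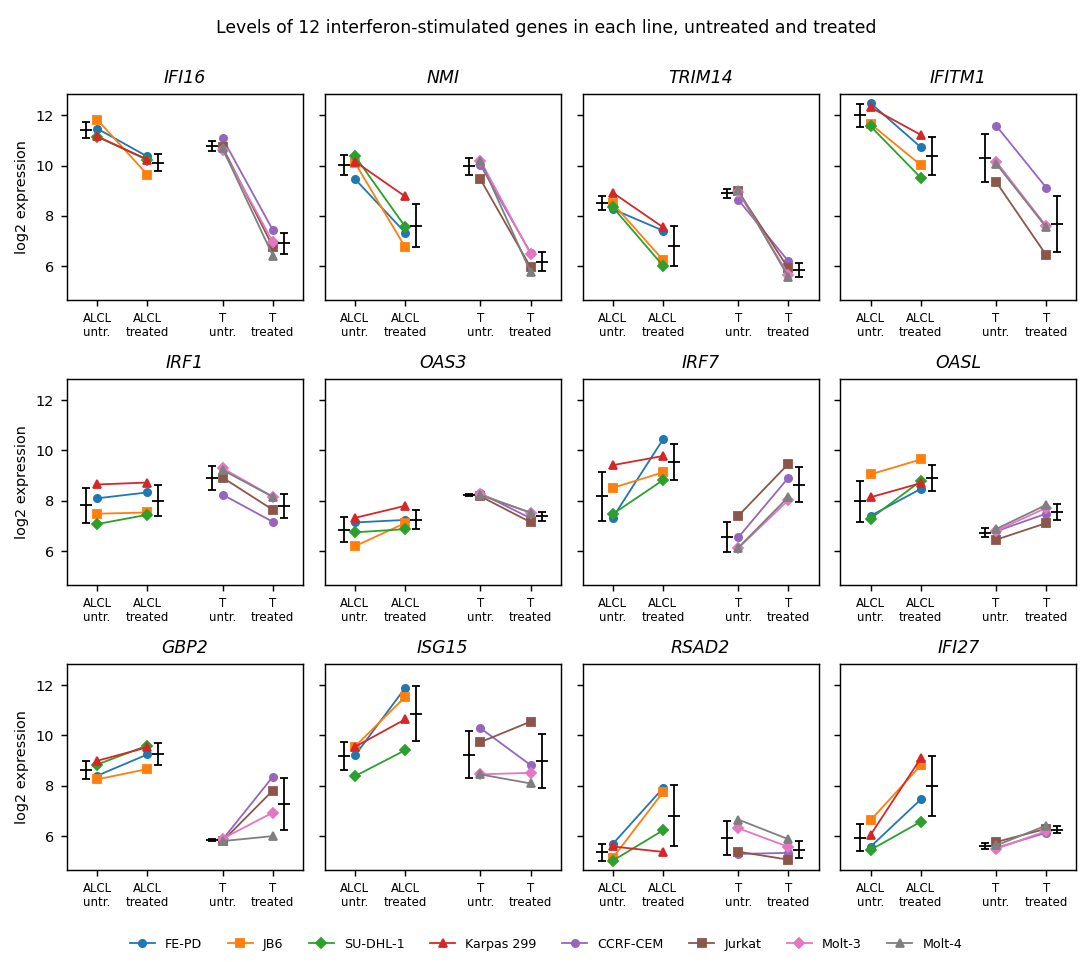
Log2 expression of 12 of the genes in each line, untreated and treated, with a line joining the 2 arrays of a cell line and black bars giving group mean ± SD (n = 4). IFI16, NMI, TRIM14 and IFITM1 slope down in all 8 lines, IRF1 slopes down in the T-cell lines alone, and ISG15, RSAD2 and IFI27 climb most in ALCL lines, with RSAD2 in Karpas 299 the exception.

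IRF7 read 8.52, 7.47, 9.42 and 7.33 untreated and 9.13, 8.82, 9.78 and 10.44 treated. FE-PD gained 3.11 log2 units, the largest rise of any member in any line, while Karpas 299, the highest untreated, gained 0.37, and the difference was 1.36 ± 0.36, adjusted p = 0.0235. OASL rose in all 4 lines (0.93 ± 0.16, adjusted p = 0.00358), and IFIT3 rose by 0.99 in JB6, 0.64 in SU-DHL-1, 0.24 in Karpas 299 and 0.35 in FE-PD (0.56 ± 0.14, adjusted p = 0.0219). With array centring on the spikes IFIT3 was at -0.05. The other regulators did not follow. IRF1 differed by 0.18 ± 0.11 (adjusted p = 0.257) and IRF9 by 0.07 ± 0.29 (adjusted p = 0.882), with IRF9 higher by 1.26 in FE-PD and lower in JB6 and Karpas 299. MX1 (-0.23 ± 0.39, adjusted p = 0.684), IFIT1 (0.32 ± 0.2, adjusted p = 0.266), OAS1 (-0.03 ± 0.16, adjusted p = 0.913) and ADAR (-0.31 ± 0.18, adjusted p = 0.227) were not called. The other OAS1 probe set was called lower there (-0.79 ± 0.14, adjusted p = 0.00417). MX1 gained 0.82 in FE-PD and changed by -1.39 in Karpas 299, where its untreated level was highest.

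Among the members that fell, NMI read 10.11, 10.38, 10.16 and 9.46 untreated and 6.76, 7.57, 8.77 and 7.34 treated (-2.42 ± 0.28, adjusted p = 0.00051). TRIM14 went from 8.49, 8.34, 8.92 and 8.27 to 6.25, 6.02, 7.55 and 7.42 (-1.7 ± 0.25, adjusted p = 0.00153). This fall rests on the probe set used, as the other TRIM14 sets, at -0.32, -0.36 and 0.4, were not called in ALCL lines. IFITM1 went from 11.65, 11.56, 12.31 and 12.48 to 10.02, 9.52, 11.22 and 10.73 (-1.63 ± 0.16, adjusted p = 0.000233). For each of these genes the treated values lay below every untreated one. IFI16 read 11.83, 11.15, 11.16 and 11.47 untreated and 9.64, 10.22, 10.24 and 10.36 treated, a smaller fall than in the T-cell lines (-1.29 ± 0.21, adjusted p = 0.00252). Also lower were TRIM22 (-1.48 ± 0.41), IFITM2 (-1.39 ± 0.31), the nuclear-body protein SP100 (-1.14 ± 0.23), IFI35 (-0.98 ± 0.18), UBE2L6 (-0.79 ± 0.23) and EIF2AK2 (-0.4 ± 0.13). Their adjusted p values ran from 0.00499 to 0.0449.

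The ALCL calls rest on few lines. With centring on the spikes 1 member was higher (0.61% of all genes) and 13 lower (16.5%). The all-gene median was then -0.52, and 3.57% of all called genes were higher instead of 37.5%. Without SU-DHL-1, 3 members were higher and 6 lower (4.31% and 8.44% of all genes were), and without JB6, 4 were higher (4.23%). The calls of IFI27, ISG15, OASL, NMI, TRIM14, IFITM1, IFI16, SP100 and IFI35 held whichever line was left out. RSAD2 was lost without FE-PD (1.2), JB6 (1.07) or SU-DHL-1 (1.54), IRF7 without SU-DHL-1 (1.36), IFIT3 without JB6 (0.41) or SU-DHL-1 (0.53), and IFITM2 without SU-DHL-1 (-1.14). IFI6 was lost in 6 of 8 such fits (0.78 to 1.2), TRIM22 and UBE2L6 without any 1 of the ALCL lines (-1.6 to -1.33 and -0.85 to -0.74), and EIF2AK2 in 6 of 8 (-0.49 to -0.34). Karpas 299 was the sole ALCL line without a 28S rise. In a fit of the 3 lines without that rise ALCL was thus 1 line, so only the size of its change is given. RSAD2 was at -0.22 there, and the median member change was -0.02, against 0.07 over all genes.

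Some members moved alike in both cell types. Called lower in both were 9 of the 46 members (19.6%, where 10.6% of all genes were), namely IFI16, NMI, IFITM1, IFITM2, UBE2L6, TRIM14, TRIM22, SP100 and IFI35. They were 39.1% of the 23 called lower in T-cell lines and 90.0% of the 10 in ALCL lines. Over all genes the calls lower in both were 52.4% of those in T-cell lines and 79.0% of those in ALCL lines, so the members' share was below that of all genes on the T-cell side and above it on the ALCL side. IRF7 and OASL were the 2 called higher in both (4.35% of members, where 5.14% of all genes were). They were 50% of the 4 in T-cell lines and 28.6% of the 7 in ALCL lines, against 23.6% and 63.9% over all genes. No member was called in opposite directions. Counting direction alone, IRF7, GBP2, OASL and IFI27 were higher in all 8 lines (15.2% of all genes were), and 12 members were lower in all 8 (14.0% of all genes were).

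**Figure D3:**
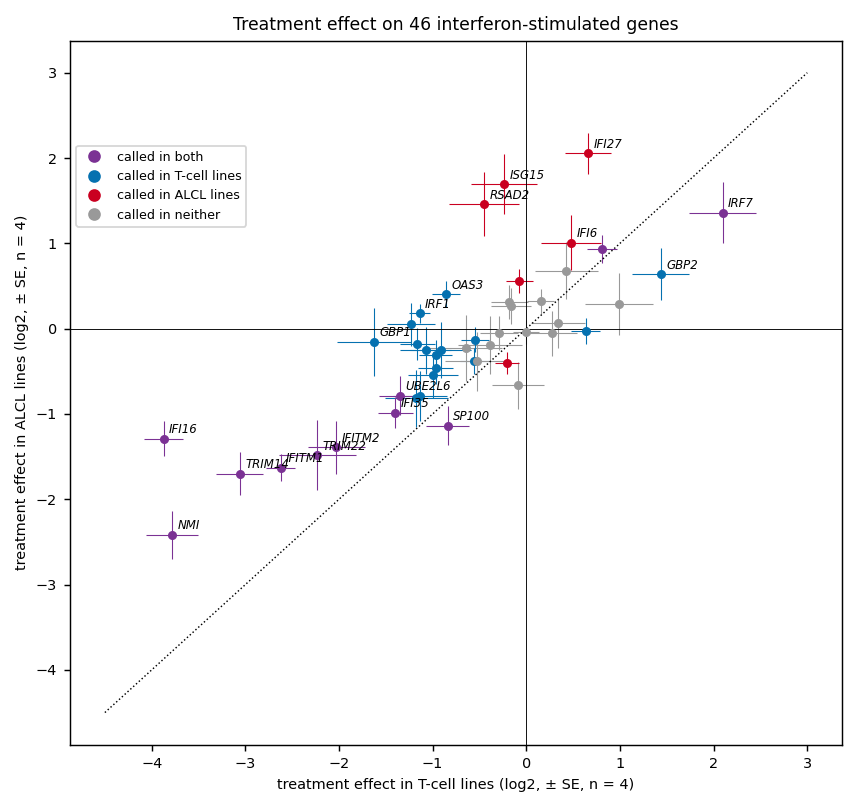
Treatment effect on each of the 46 genes in T-cell lines (horizontal) against ALCL lines (vertical), log2 difference ± SE, n = 4 lines each, with the dotted line marking equal effects and colour showing where a gene was called. Of the 46 points 36 lie above the dotted line, with IFI16 at -3.87 and -1.29 farthest from it among called genes, and IFI27, ISG15 and RSAD2 stand high on the ALCL axis alone.

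The difference between the 2 treatment effects was tested directly, ALCL minus T-cell. It was called for 3 members, all in the direction of a higher value in ALCL lines (6.52%, against 1.11% of all genes), and for none in the other direction (0.568% of all genes). At an unadjusted p under 0.05 there were 15 members, but the share of all genes at that threshold was not counted. The median member difference was 0.44, against -0.05 over all genes. IFI16 fell by less in ALCL lines (2.58 ± 0.3, adjusted p = 0.00283). IRF1 fell in T-cell lines and was not called in ALCL lines, where all 4 lines were slightly higher (1.32 ± 0.16, adjusted p = 0.00342). OAS3 fell in T-cell lines and read 6.2, 6.75, 7.32 and 7.14 untreated and 7.11, 6.87, 7.8 and 7.24 treated in ALCL lines (1.26 ± 0.22, adjusted p = 0.0196). For ISG15 (1.93 ± 0.5, adjusted p = 0.104), RSAD2 (1.91 ± 0.53, adjusted p = 0.134) and IFI27 (1.4 ± 0.34, adjusted p = 0.0876), called in ALCL lines alone, the difference between the types was not itself called. Neither was it for IRF7 (-0.74 ± 0.51, adjusted p = 0.606), IRF9 (-0.28 ± 0.41), MX1 (0.42 ± 0.55), IFIT1 (0.5 ± 0.28), OAS1 (-0.66 ± 0.22) or ADAR (0.66 ± 0.25). Without SU-DHL-1, 5 members were called higher (1.01% of all genes), and without FE-PD 1 was called lower (0.59%). The call of OAS3 was lost without Molt-3 (1.31) or Molt-4 (1.32). With spikes as the reference 1 of the 3, IFI16, was called, where 0.41% of all genes were called higher.

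Before treatment the ALCL lines already stood above the T-cell lines for part of the family. Of the 46 members 10 (21.7%) were higher in ALCL lines, against 3.18% of all genes, and 1 (2.17%) was lower, against 5.58%. Higher were GBP2, IFITM2, IFITM3, PLSCR1, IFI35, IRF9, SP100, BST2, SP110 and IRF2, and OAS3 was lower. The median member difference was 0.23, against 0.04 over all genes. All 4 ALCL lines lay above all 4 T-cell lines for 12 members (8.61% of all genes did) and below them for 3, OAS3, IFIT1 and IFI6 (9.74%).

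GBP2, an interferon-induced GTPase, read 8.25, 8.84, 8.99 and 8.4 in ALCL lines and 5.8, 5.86, 5.89 and 5.8 in T-cell lines. The types did not overlap, and the T-cell lines were within a narrow band (2.78 ± 0.17, adjusted p = 8.19e-05, 6.87-fold). IRF9 read 9.4, 8.34, 9.98 and 9.1 in ALCL lines and 7.52, 7.74, 7.67 and 7.67 in T-cell lines (1.56 ± 0.3, adjusted p = 0.0203). SP100 read 8.2, 8.39, 8.82 and 8.65 and 6.88, 6.97, 7.11 and 7.14 (1.49 ± 0.15, adjusted p = 0.00111). Neither gene overlapped between types, with Karpas 299 highest for both. IFITM3 was high in all ALCL lines (11.55, 12.71, 13.25 and 12.35) and lower in 3 of the 4 T-cell lines (10.28, 11.58, 9.79 and 9.97), with CCRF-CEM inside the ALCL range (2.06 ± 0.47, adjusted p = 0.0338). IFITM2 (2.09 ± 0.49), PLSCR1 (2.04 ± 0.46), IFI35 (1.88 ± 0.41), BST2 (1.41 ± 0.32), SP110 (0.96 ± 0.16) and IRF2 (0.65 ± 0.13) had no overlap between types. OAS3 was lower in ALCL lines, 6.2, 6.75, 7.32 and 7.14, than in T-cell lines, 8.18, 8.3, 8.25 and 8.22 (-1.39 ± 0.23, adjusted p = 0.00996).

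**Figure D4:**
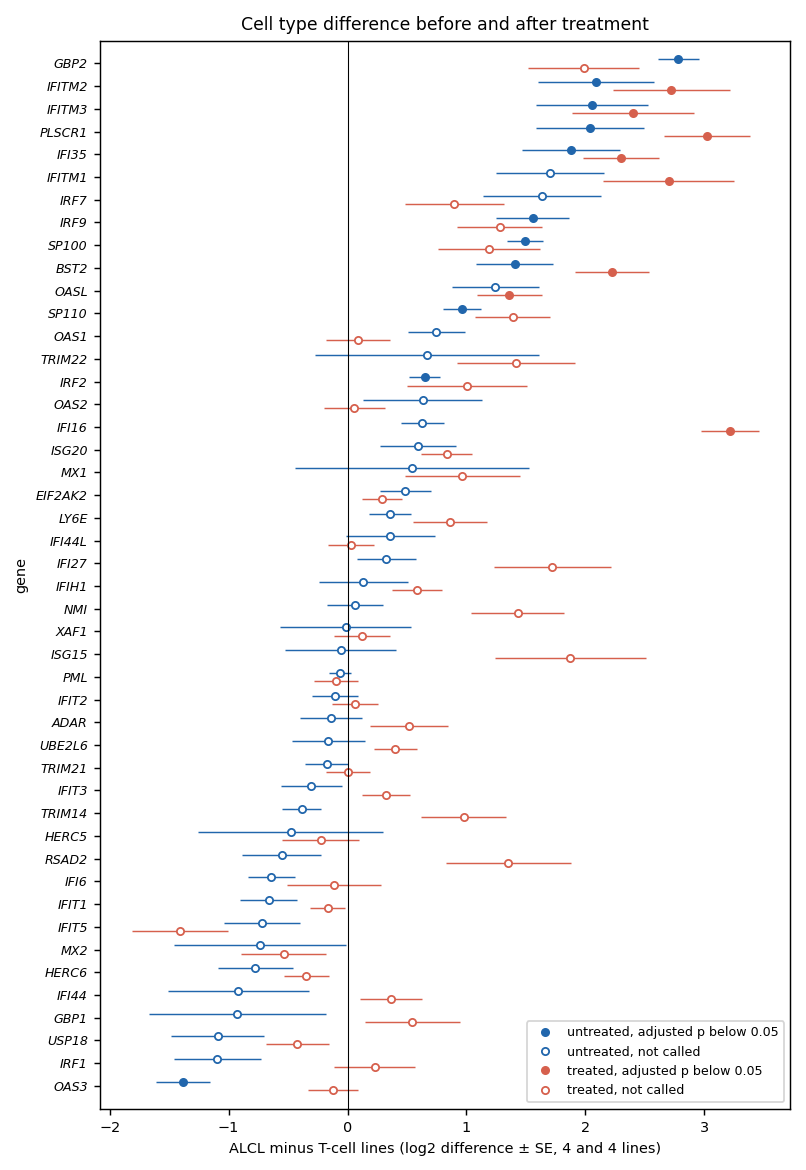
ALCL minus T-cell log2 difference ± SE for each of the 46 genes, untreated (blue) and treated (red), 4 lines against 4, with filled points for an adjusted p below 0.05. GBP2 has the highest untreated difference at 2.78 and IFI16 the highest treated one at 3.21, and OAS3, at -1.39 untreated, is the only filled point below 0.

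Of the regulators and markers of interferon exposure named in each comparison, few differed between untreated types. IRF1 (-1.09 ± 0.37, adjusted p = 0.11), IRF7 (1.64 ± 0.5, adjusted p = 0.083), ISG15 (-0.06 ± 0.47, adjusted p = 0.952), MX1 (0.54 ± 0.98, adjusted p = 0.758), IFIT1 (-0.66 ± 0.24, adjusted p = 0.133), OAS1 (0.75 ± 0.24, adjusted p = 0.0991), IFI27 (0.33 ± 0.25, adjusted p = 0.445) and ADAR (-0.14 ± 0.26, adjusted p = 0.765) were not called. The other OAS1 probe set was called higher in untreated ALCL lines (1.23 ± 0.31, adjusted p = 0.0485). On the set used here OAS1 did not overlap between the types, at 7.27, 6.58, 7.7 and 6.69 in ALCL lines and 6.21, 6.31, 6.27 and 6.46 in T-cell lines. ISG15 was high in both types, at 9.56, 8.38, 9.55 and 9.21 and 9.73, 10.29, 8.45 and 8.45.

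After treatment 8 of 46 members (17.4%) were higher in ALCL lines, against 1.35% of all genes, and none was lower (1.53% of all genes). The 8 were IFI16, PLSCR1, IFITM2, IFITM1, IFITM3, IFI35, BST2 and OASL, and the median member difference was 0.71, against -0.03 over all genes. In all, 22 members had an unadjusted p under 0.05, but the share of all genes at that threshold was not counted. All ALCL lines lay above all T-cell lines for 16 members (4.26% of all genes) and below them for IFIT5 alone (5.85%). IFI16, at 9.64, 10.22, 10.24 and 10.36 against 6.78, 7.44, 6.97 and 6.42, had a difference of 3.21 ± 0.25, adjusted p = 0.000367, where the untreated one was 0.63 ± 0.18, adjusted p = 0.0697. PLSCR1 read 9.84, 11.04, 11.49 and 10.0 treated in ALCL lines and 7.57, 7.96, 7.39 and 7.37 in T-cell lines (3.02 ± 0.36, adjusted p = 0.00283). BST2 read 9.96, 9.05, 10.53 and 9.26 and 7.68, 7.65, 7.42 and 7.16 (2.22 ± 0.31, adjusted p = 0.00741), and IFI35 8.3, 9.06, 9.32 and 7.86 and 6.18, 6.1, 6.78 and 6.3 (2.3 ± 0.32, adjusted p = 0.00713). For each of these the types did not overlap. IFITM1 (2.7 ± 0.55), IFITM2 (2.72 ± 0.49), IFITM3 (2.4 ± 0.51) and OASL (1.36 ± 0.27) were called with adjusted p from 0.021 to 0.0411. Not called were IRF1 (0.23 ± 0.34), IRF7 (0.9 ± 0.42), IRF9 (1.28 ± 0.36), ISG15 (1.87 ± 0.63), MX1 (0.96 ± 0.48), IFIT1 (-0.17 ± 0.15), OAS1 (0.09 ± 0.27), IFI27 (1.72 ± 0.49) and ADAR (0.52 ± 0.33). The untreated and the treated comparison use the same lines and are not independent.

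Both type comparisons are sensitive to single lines. Untreated, 5 members were called higher without JB6, Jurkat, Molt-3 or Molt-4 in turn (2.7%, 2.6%, 1.6% and 1.6% of all genes). Without Karpas 299, 4 were called higher (2.3%). Called lower were 3 without CCRF-CEM (4.8%) and 2 without Jurkat (4.2%). GBP2, SP100, SP110 and OAS3 were called whichever line was left out. Over the same fits IFITM2 ranged over 1.77 to 2.55, IFITM3 over 1.8 to 2.45, PLSCR1 over 1.76 to 2.48, IFI35 over 1.61 to 2.1, BST2 over 1.08 to 1.63, IRF9 over 1.3 to 1.84 and IRF2 over 0.58 to 0.71. Of these, IRF9 lost its call without JB6, Molt-3 or Molt-4, IRF2 without Karpas 299 or Jurkat, and the others in 5 to 7 fits. Treated, 4 were called higher without Jurkat, Molt-3 or Molt-4 in turn (1.08%, 0.59% and 0.79% of all genes). IFI16, PLSCR1, BST2 and IFI35 were called whichever line was left out, while IFITM1 (2.29 to 3.18), IFITM2 (2.26 to 3.08), IFITM3 (1.88 to 2.69) and OASL (1.11 to 1.5) were each lost without Jurkat, Molt-3 or Molt-4, and 3 of them without some ALCL line too. Centring on the spikes raised the all-gene medians to 0.38 and 0.39. It called 12 untreated and 16 treated members higher (4.72% and 2.27% of all genes) and none lower (1.57% and 0.18%). The share of all called genes that were higher in ALCL lines then went from 36.3% to 75.0% untreated and from 47.0% to 92.8% treated.

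Untreated lines differed widely within a type. The widest spread over the 8 lines was in TRIM22, at 7.86, 9.24, 10.35 and 8.34 in ALCL lines and 5.72, 7.98, 9.57 and 9.84 in T-cell lines, a range of 4.63. MX1 came next with 4.11, at 8.9, 6.24, 10.35 and 6.52 and 6.28, 6.66, 8.52 and 8.37. Karpas 299 was highest for both genes, Jurkat was lowest for TRIM22, and SU-DHL-1 for MX1, and the types overlapped for both genes, for TRIM22 in part. HERC5, the ISG15 ligase, ranged over 3.49 and was highest in SU-DHL-1 and lowest in FE-PD. The other wide ranges belonged to IFITM3 (3.46), IFI35 (3.45), IRF7 (3.3), PLSCR1 (3.23), IFITM2 (3.2), GBP2 (3.19) and IFITM1 (3.13).

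**Figure D5:**
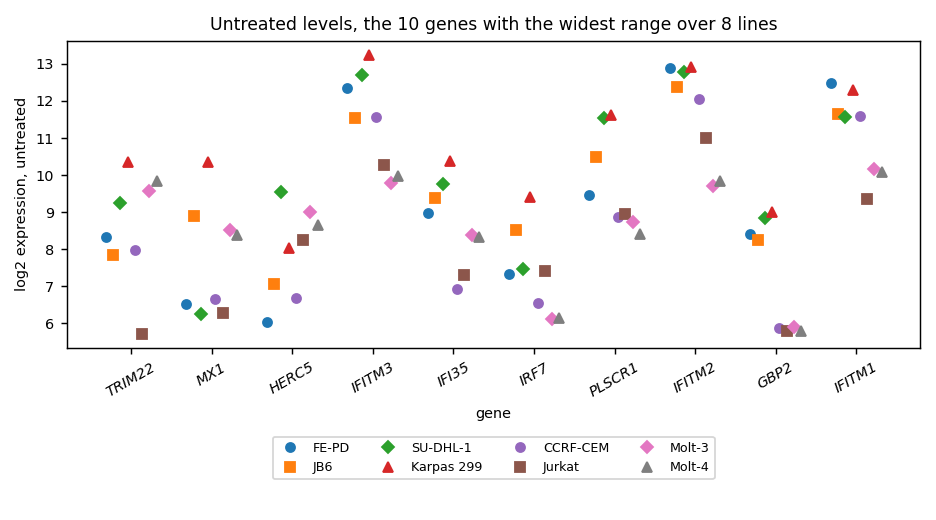
Untreated log2 expression of the 10 genes with the widest range over the 8 lines, 1 symbol per line. Karpas 299 (red triangle) is the highest point for 8 of the 10 genes, and Jurkat (brown square) is far below the rest for TRIM22.

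Karpas 299 had the highest untreated level of the 8 lines for 17 of the 46 members (37.0%), where it was highest for 10.2% of all genes, and the lowest for 1, ADAR (12.6% of all genes). Among the 17 were TRIM22, MX1, IRF7, IRF9, OAS1, OAS2, BST2, XAF1 and IFI44L. Its median member level was 8.87, against 7.84 to 8.11 in the other ALCL lines and 7.55 to 8.27 in the T-cell lines. The all-gene medians ran from 7.14 to 7.28. Without Karpas 299 the median ALCL minus T-cell difference over the 46 members was 0.02 in place of 0.23. Jurkat was lowest for 14 members (16.7% of all genes), among them TRIM22, IFITM1, OAS1, OAS2, MX2, IRF9 and BST2. Molt-3 and Molt-4 were highest for 7 and 6 members (7.19% and 7.41% of all genes). After treatment the range over the 8 lines was smaller than before for 25 members, or 54.3%, against 41.3% of all genes.

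The largest rises in a single line went to different lines. IRF7 gained 3.11 in FE-PD, IFI27 3.04 in Karpas 299, ISG15 2.68 in FE-PD and RSAD2 2.61 in JB6. In CCRF-CEM GBP2 gained 2.49, IFIT5 2.4, IFI6 1.7 and HERC5 1.57, and OASL gained 1.5 in SU-DHL-1 and IRF9 1.26 in FE-PD. FE-PD had 8 members higher by more than 1 log2 unit (4.93% of all genes) and CCRF-CEM and SU-DHL-1 5 each (3.91% and 3.59%). JB6 had 4 (6.85%), Jurkat 3 (3.69%), Karpas 299 and Molt-3 2 each (2.94% and 3.59%) and Molt-4 1 (5.43%). Falls of that size were most frequent in Molt-4 and Molt-3, with 19 and 18 members (14.8% and 11.8% of all genes). CCRF-CEM and Jurkat had 14 each (7.38% and 9.14%), SU-DHL-1 11 (10.2%), JB6 9 (13.8%), Karpas 299 9 (4.24%) and FE-PD 8 (5.37%). Each of these counts compares 1 array with 1 array and has no replicate check. As a description, the median pairwise correlation of members was 0.1 for untreated levels and 0.19 for changes over the 8 lines, whose values share an array or a pair of arrays.

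Members that lie side by side on a chromosome did not always move together. The IFITM genes IFITM2, IFITM1 and IFITM3 follow each other on chromosome 11 and all fell in T-cell lines. OAS1, OAS3 and OAS2 follow each other on chromosome 12, and in T-cell lines OAS1 rose (0.63 ± 0.16), OAS3 fell (-0.86 ± 0.15) and OAS2 was at -0.09 ± 0.28. GBP1 and GBP2 are neighbours on chromosome 1 and moved in opposite directions there (-1.62 ± 0.4 and 1.43 ± 0.3). IFI44 fell on the probe set used (-1.24 ± 0.26), while its neighbour IFI44L was at 0.28 ± 0.26. The other IFI44 set was at 0.05 and was not called. By the promoter letters, 11 of the 23 members with an ISRE match and 7 of the 11 without one were lower in T-cell lines. Of all genes 20.2% were lower there. Higher there were 0 of the 23 and 1 of the 11, against 21.7% of all genes. In ALCL lines 5 of the 23 and 0 of the 11 were higher, against 8.04% of all genes. Lower there were 4 of the 23 and 4 of the 11, against 13.4% of all genes. Members without a window are in neither class. They include IRF7, GBP2 and OASL, which rose in T-cell lines, and of these IRF7 and OASL also rose in ALCL lines. They also include IRF2, IFITM2, USP18, TRIM22 and LY6E, which were lower in T-cell lines, IFITM2 and TRIM22 in ALCL lines too. These counts were not tested.

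Pathway genes outside the members came from a list of 84, of which 72 were measured. In the T-cell lines 13 rose (18.1%, against 21.7% of all genes) and 17 fell (23.6%, against 20.2%). In the ALCL lines 9 rose (12.5%, against 8.04%) and 11 fell (15.3%, against 13.4%), so these shares lay near those of all genes. Among the ligands, 7 of 14 measured interferon genes rose in the T-cell lines, none fell, and none was called in ALCL lines. The 4 with the smallest adjusted p were IFNA14 (0.83 ± 0.24), IFNA4 (0.72 ± 0.21), IFNA5 (0.55 ± 0.17) and IFNB1 (0.41 ± 0.13), with adjusted p from 0.0208 to 0.0271. IFNB1 read 5.33 ± 0.13 (SD, n = 4) untreated and 5.73 ± 0.17 treated. In the lowest 25% of mean levels 21.8% of all genes rose in T-cell lines, and the IFNA genes are close paralogs whose probes may not tell them apart. No ligand differed between types in either condition.

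Of the receptors, kinases and STATs, JAK1, the kinase of the receptor, rose in both types (0.82 ± 0.14 in T-cell and 0.84 ± 0.14 in ALCL lines), and IL10RB, a receptor chain, fell in both (-0.97 ± 0.13 and -0.66 ± 0.13). The relay adaptor MYD88 fell by more in T-cell lines (-1.87 ± 0.13) than in ALCL lines (-0.74 ± 0.13), and that difference was called (1.13 ± 0.18, adjusted p = 0.0164). TRAF3, another adaptor, fell in both (-1.24 ± 0.17 and -0.53 ± 0.17). The immunoproteasome subunit PSMB9 fell in both (-1.84 ± 0.23 and -1.62 ± 0.23), and in ALCL lines so did the peptide transporter TAP1 (-1.12 ± 0.16). Higher in T-cell lines were the chemokines CXCL9 (0.72 ± 0.14) and CXCL11 (2.41 ± 0.6) and the editing enzyme ADARB1 (0.93 ± 0.22). In ALCL lines the chemokine CCL5 (0.85 ± 0.16), LAMP3 (1.2 ± 0.26) and the transcription factor IRF8 (1.25 ± 0.3) rose. Also different between the treatment effects were SAMD9 (1.53 ± 0.25) and LGALS9 (1.35 ± 0.28).

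Between untreated types 2 feedback inhibitors were among the genes that differed. SOCS1 (3.78 ± 0.36) and SOCS3 (2.19 ± 0.26), which shut off JAK signalling, were higher in ALCL lines, as were the DNA sensor AIM2 (3.4 ± 0.32) and the type II receptor chain IFNGR1 (2.05 ± 0.31). Their adjusted p ran from 0.00081 to 0.00683. The type I receptor chain IFNAR2 (-0.75 ± 0.13), ZC3HAV1 (-0.87 ± 0.2) and TRAF3 (-1.01 ± 0.24) were lower. In all, 10 of the 72 were higher (13.9%, against 3.18% of all genes) and 3 lower (4.17%, against 5.58%). After treatment 6 were higher (8.33%, against 1.35% of all genes) and none lower (1.53% of all genes), led by SOCS3 (2.47 ± 0.2), AIM2 (2.6 ± 0.27), TRIM38 (1.71 ± 0.3) and SLFN12 (0.74 ± 0.16). Markers of cells that make or sense much interferon were also compared. The mean of 4 plasmacytoid dendritic markers was 7.67 to 8.93 in untreated ALCL lines and 5.93 to 6.41 in untreated T-cell lines, with the cytotoxic gene GZMB, which ALCL cells express, among them. The mean of 5 myeloid markers was 5.98 to 6.48 and 5.39 to 5.71, that of 5 NK markers 6.33 to 7.22 and 5.86 to 6.53, and that of 5 B-cell markers 6.47 to 6.75 and 6.54 to 6.9. Of the myeloid markers only CSF1R was called between untreated types (2.39 ± 0.27). A log2 array value has no 0, so the absence of a marker cannot be read from it, and the part of these markers in the results was not tested.

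Most members, 31, had 1 probe set, and 15 had several, with 29 further probe sets in all. Of 18 further probe sets of members called in T-cell lines 9 were called the same way and 1, of TRIM14, the opposite way. In ALCL lines 5 of 11 were called the same way and none the opposite way. Between untreated types it was 3 of 8, and between treated types 4 of 4, with none the opposite way. For the untreated SP100 difference the further sets at 0.86 and 0.76 were called, and those at 0.29 and 0.11 were not. For SP110 the set at 1.05 was called, and those at 0.94 and 0.27 were not. Of the further probe sets of members not called, 1 was called higher (IFIT5) and 4 lower (EIF2AK2 and PML) in T-cell lines, and 3 lower (OAS1 and PML) in ALCL lines. All 3 probe sets of IFI16 fell in both types. PML, which was not called, had 8 probe sets, of which 3 were called lower in T-cell lines.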

How the data were processed

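Gene expression was measured in 8 cell lines, untreated and treated, on 16 Affymetrix HG-U133A arrays, which read each transcript with probe sets of short oligonucleotides. The deposited values are log2 expression, summarised by RMA, and the submitters' processing notes name R 2.10.1. For probe set definitions, filters and detection calls, the sources used here give nothing. Whether a gene was above background is therefore not stated. Of 22283 probe sets 19065 had 1 symbol in the platform annotation and were used, giving 11963 genes; sets with several symbols (1043) or none (2107) and 68 control sets were left out.

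Groups came from the labels. Differences were tested two-sided with limma 3.58.1 (lmFit, eBayes) in R 4.3.3 and adjusted by Benjamini-Hochberg over the 11963 genes, with 0.05 as the threshold. Treatment effects and their difference came from 1 fit of 16 arrays with the cell line as replicate block (6 residual degrees of freedom), and each comparison between types from 8 arrays. The pairing comes from the labels, where each line appears in both conditions. The deviations from the group means correlated between the arrays of one line at 0.33 to 0.643 over genes. The untreated Molt-4 array was closer to the treated array of another T-cell line (0.399) than to its own treated array (0.33). The scripts were tested on simulated data.

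The members and the pathway and marker lists were chosen with earlier results of these data known. Named with values are called members, up to 10 largest and 10 smallest differences per comparison, with IRF1, IRF7, IRF9, ISG15, MX1, IFIT1, OAS1, IFI27 and ADAR always, the 10 widest untreated ranges, the 10 largest rises in a line, and up to 4 pathway genes per direction and comparison. Genes outside this rule are named where a count or a neighbour turns on them. The alternatives were no block, 1 cell type alone, lines with or without a 28S rise, the mean of probe sets, the lowest 40% of genes left out, quantile normalization, spike centring, eBayes with trend, and leaving out each line.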

Additional observations from a re-analysis of the deposited data

Results flagged for a closer look

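In 6 of 184 groups of 4 lines, 1 line lay far from the other 3, by more than Dixon's critical value for 4 samples; chance alone flags about 1 group in 20. Treated FE-PD had IFIT3 at 6.8, with the other treated ALCL lines at 7.29 to 7.38. Treated CCRF-CEM had IFITM2 at 9.69, with the other T-cell lines at 8.17 to 8.34. Untreated Jurkat had MX2 at 6.53 and XAF1 at 7.41, where the other T-cell lines had 9.19 to 9.35 and 5.88 to 6.12. Untreated JB6 had USP18 at 6.62, with the other ALCL lines at 7.1 to 7.18, and treated JB6 had PML at 7.84, with the others at 8.4 to 8.48.

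The treatment effect differed between ALCL and T-cell lines, by the interaction term in limma, for IFI16 (2.58), IRF1 (1.32) and OAS3 (1.26). For IRF1 the 4 T-cell lines all fell and the 4 ALCL lines were all higher.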

How the results depend on the processing

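Treatment effects were recomputed under 17 alternatives, their difference under 16 and each comparison of types under 13. Percentages in brackets are shares of all genes. Without the replicate block, that is ignoring the pairing by line, treatment called 2 members higher in T-cell lines (15.6%). It called 1 higher (3.7%) and 4 lower (8.34%) in ALCL lines, and 1 higher for the difference of effects (0.39%). With spike centring treatment called 1 higher in each type (0.53% in T-cell and 0.61% in ALCL lines) and 1 higher for the difference (0.41%). The type comparisons then called 0 lower untreated (1.57%) and 16 higher treated (2.27%). Quantile normalization and the lines with a 28S rise each called 5 higher for the difference (0.89% and 1.42%). In the lines without a 28S rise 12 were lower in T-cell lines (8.32%). ALCL was Karpas 299 alone in that fit, so no counts are given for ALCL lines or for the difference. Leaving out 1 line in turn gave 4 to 5 higher (7.85% to 24.68%) and 15 to 23 lower (12.95% to 21.23%) in T-cell lines. In ALCL lines it gave 3 to 7 higher (4.23% to 8.84%) and 6 to 10 lower (7.74% to 13.3%). For the difference it gave 2 to 5 higher (0.48% to 1.2%) and 0 to 1 lower (0.08% to 0.6%). Between types it gave 4 to 9 higher (1.56% to 3.89%) and 1 to 3 lower (2.22% to 6.1%) untreated and 4 to 9 higher (0.6% to 1.6%) treated. Fitting 1 cell type alone, the mean of probe sets, leaving out the lowest 40% of genes and eBayes with trend kept every count within 1.5 times the main one. Called values changed sign in 3 cases: RSAD2 in ALCL lines (-0.22, lines without a 28S rise), OAS1 in T-cell lines (-0.0499, spike centring) and IFIT3 in ALCL lines (-0.0487, spike centring); the cause was not tested. Leaving aside the lines without a 28S rise, where ALCL was 1 line, calls held in every other alternative run for 12 of 27 members in T-cell lines (IFI16, IRF1, IRF7, NMI, IFITM1, IFITM2, ADAR, UBE2L6, TRIM14, TRIM22, IFI35 and LY6E), 5 of 17 in ALCL lines (IFI16, NMI, TRIM14, SP100 and IFI27), 1 of 3 for the difference (IFI16), 3 of 11 untreated and 4 of 8 treated. With the fit of lines without a 28S rise counted too, calls held for 8 of the 27 members in T-cell lines, which had CCRF-CEM and Jurkat there. For ALCL lines and for the difference that fit rests on Karpas 299 alone. The number of lines limits all of these.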

Other observations

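Some pathway genes outside the members were picked out after their values were seen. Among them SAMD9 and LGALS3BP were called in opposite directions in the 2 cell types. SAMD9, an antiviral factor, fell in T-cell lines (-0.88 ± 0.18, adjusted p = 0.00471) and rose in ALCL lines (0.65 ± 0.18, adjusted p = 0.0278), and the difference between the effects was called (1.53 ± 0.25, adjusted p = 0.0172). LGALS3BP, a secreted glycoprotein, fell in T-cell lines (-1.01 ± 0.36, adjusted p = 0.0457) and rose in ALCL lines (1.23 ± 0.36, adjusted p = 0.0362), but the difference between the effects missed the threshold (2.24 ± 0.51, adjusted p = 0.0655). TNFSF10, the death ligand TRAIL, was higher in untreated ALCL than in untreated T-cell lines (3.71 ± 0.86, adjusted p = 0.0359) and fell in ALCL lines on treatment (-1.31 ± 0.39, adjusted p = 0.0374). All values are limma log2 differences with their SE. The kinase gene TBK1, which phosphorylates interferon regulatory factors, was also higher in untreated ALCL lines (2.13 ± 0.36, adjusted p = 0.011).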
